A study of Mus musculus with 2 samples.

Results

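Of the 5107 binding sites of thyroid hormone receptor α1 (TRα1) listed for brown adipocytes, 369 (7.23%, 95% Wilson interval 6.55 to 7.97%) held a near-perfect DR4 element. A binding site of the receptor is called a TRBS below. In a DR4, the half-site AGGTCA occurs 2 times in the same direction with 4 bp between the copies, and a TRBS was counted when its interval held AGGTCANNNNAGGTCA on either strand with at most 1 mismatch over the 12 half-site bases. The element was perfect in 44 TRBS and carried 1 mismatch at best in the other 325. A further 1264 TRBS had 2 mismatches at best, and 3474 had no DR4 with up to 2 mismatches.

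The list came from brown adipose tissue of male C57BL/6J mice, 8 to 12 weeks old, with a GS-tagged TRα1 made only in brown adipocytes. All animals had eaten propylthiouracil, a blocker of thyroid hormone synthesis, for 2 weeks, and all were then treated with thyroid hormone over 24 h. Peaks were called in 1 library of precipitated chromatin (ChIP-seq) against 1 input library made without antibody. Tissue without hormone was not analysed here, so no difference between conditions could be tested, and the tagged receptor stands in for the endogenous one. No p-value is given, because there was no replicate. Intervals are 95% intervals over the TRBS or genomic sites of this list, they cover counting error only, and neighbouring TRBS are not independent. Whether the tissue label fits its defining markers could not be checked, since no transcript was measured in the samples used here.

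TRs are nuclear receptors that bind DNA with or without their hormone, most often as a heterodimer with the retinoid X receptor (RXR). On a DR4, RXR lies on the 5′ half-site and TR on the 3′ half-site, and the spacing of the half-sites distinguishes this element from those preferred by other RXR partners. Without hormone the bound TR recruits corepressors, and with hormone it recruits coactivators. In brown adipose tissue, thyroid hormone is known for its part in heat production and in the turnover of lipids.

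The elements that carry the results are printed 5′ to 3′ from the RefSeq sequence of GRCm38.p6, with 4 flanking bases on each side and the matching half-site bases in capitals. The spacer, the flanks and any mismatched base are in lower case. Positions count from 1 at the 5′ end of the element, so that the half-sites are positions 1 to 6 and 11 to 16 and the spacer is positions 7 to 10. A token such as T14A gives the consensus base, its position and the base at the site. The first set shows perfect elements at TRBS in falling order of ChIP fragments at the summit, with the gene whose transcription start site (TSS) was nearest.
Pwwp2b: ttggAGGTCAtgtcAGGTCAttgg
Tmod3: tgacAGGTCAcaaaAGGTCAcacc
Desi1: ggttAGGTCAagtcAGGTCAccct
Socs1: gtcaAGGTCAgatgAGGTCActtc
Ndufs4: ggagAGGTCAgaagAGGTCAtcga
Prr15: acatAGGTCAtttaAGGTCAagga
The Pwwp2b element lay at chr7:139257442-139257457 on the plus strand, in an intron of the gene. The Tmod3 element lay at chr9:75553387-75553402 on the plus strand, also in an intron. The Desi1 element was at chr15:82015394-82015409 on the minus strand, where an intron of Desi1 overlaps a 5′ UTR exon of an Xrcc6 transcript. The intergenic elements near Socs1 and Ndufs4 were at chr16:10761397-10761412 on the minus strand and chr13:114405026-114405041 on the plus strand. The element of Prr15 was at chr6:54224800-54224815 on the plus strand, in an intron of Chn2.

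The second set shows elements with 1 mismatch at genes of the lists counted further on (targets of thyroid hormone, lipid metabolism, thermogenesis, the clock and genes the study names) and at strong TRBS.
Thrsp: ggtgAGGTCAggttAGtTCActgc
Pnpla2: ccatAGGTCAggcaAGGTgAcaag
Ppara: agcaAGGTCAgctcAGGcCAccct
G6pc: ggggAGGTCAttcaAGGTtAttct
Hadha: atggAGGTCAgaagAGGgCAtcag
Cry2: gcaaAGGTCAcagcAGGTCtatga
Hcn2: cggctGGTCAtgggAGGTCAggtg
Atp5k: ttctgGGTCAtaggAGGTCAggac
Ceacam16: agcaAGGTgAggtaAGGTCAcagt
Elmo2: gcggAGGTgAgtggAGGTCAcacc
In this order, the mismatches were G13T, C15G, T14C, C15T, T14G, A16T, A1T, A1G, C5G and C5G. The elements near Thrsp, Ppara and G6pc were intergenic, at chr7:97423934-97423949 on the minus strand, chr15:85706108-85706123 on the plus strand and chr11:101362818-101362833 on the plus strand. Those of Pnpla2 and Hadha were in introns of these genes, at chr7:141456280-141456295 on the plus strand and chr5:30148790-30148805 on the minus strand. The elements near Cry2, Hcn2 and Ceacam16 were intergenic, at chr2:92446010-92446025 on the minus strand, chr10:79701457-79701472 on the plus strand and chr7:19864434-19864449 on the minus strand. The Atp5k element was in an intron of Pde6b at chr5:108431313-108431328 on the plus strand, and the Elmo2 element was in an intron of Elmo2 at chr2:165321798-165321813 on the plus strand.

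The third set shows stretches in which elements follow or overlap each other. The first is an overlapping array of 8 elements in an intron of Kif16b, the second holds 3 of the 10 elements in an intron of Map3k13, and the others are further overlapping arrays.
Kif16b: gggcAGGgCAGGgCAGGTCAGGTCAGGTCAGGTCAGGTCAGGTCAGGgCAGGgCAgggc
Map3k13: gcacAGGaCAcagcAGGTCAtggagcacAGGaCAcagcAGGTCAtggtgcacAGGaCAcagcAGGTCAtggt
Proca1: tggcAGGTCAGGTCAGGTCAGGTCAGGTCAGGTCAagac
Mcts2: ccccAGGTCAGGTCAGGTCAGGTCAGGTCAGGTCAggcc
Usp25: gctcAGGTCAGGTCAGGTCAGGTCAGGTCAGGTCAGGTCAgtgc
These stretches, flanks included, were chr2:142878400-142878458 on the minus strand, chr16:21828292-21828363 on the minus strand, chr11:78210877-78210915 on the plus strand, chr2:152694538-152694576 on the minus strand and chr16:76971402-76971445 on the minus strand. In Kif16b, Proca1, Mcts2 and Usp25 the unit repeats every 5 bp, so that the spacer of each element is itself made of half-site bases.

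The share of TRBS with a near-perfect DR4 was set against windows of the same width placed 2 kb from each edge of the TRBS. Of 9882 such windows, 46 (0.465%, 0.349 to 0.620%) held a near-perfect DR4, against 7.23% of TRBS. A perfect DR4 was present in 0.862% of TRBS and in 2 flanking windows (0.0202%, 0.00555 to 0.0738%). With up to 2 mismatches the shares were 32.0% of TRBS and 5.43% of flanking windows.

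Within the list, the share of TRBS with a near-perfect DR4 was higher among stronger peaks. The score is the authors' MACS value, 10 times the −log10 of the q-value. The share was 4.08% (3.12 to 5.31%) in the weakest quartile of scores, 6.42% and 8.46% in the next quartiles and 9.95% (8.42 to 11.7%) in the strongest. Of the near-perfect DR4 TRBS, 335 of 369 (90.8%, 87.4 to 93.3%) reached a score of 60, the threshold of the study, and 82.4% of all TRBS did. TRBS of this group were also wider, with a median of 476 bp (457 to 498 bp) against 424 bp over all TRBS, and a wider interval has more room for an element. In a search confined to 100 bp on each side of the summit, which is the same length for every TRBS, the shares were 3.53% in the weakest quartile and 8.54% in the strongest.

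The ChIP signal was then compared between classes of match. The number of ChIP fragments at each summit was worked out from the deposited fold and p-value, and it was unique for 367 of the 369 TRBS. Perfect elements had a median of 21.5 fragments (16 to 28), elements with 1 mismatch 21 (19 to 22) and elements with 2 mismatches 20 (19 to 21). TRBS with no DR4 of up to 2 mismatches had 16 (15 to 16). The first 3 intervals overlap each other and lie at or above the upper end of the last. The median fold over input followed the same order, with 12.5 (8.72 to 17.5) for 0 mismatches, 12.4 (11.1 to 13.1) for 1, 11.7 (11.1 to 12.0) for 2 and 9.09 (8.89 to 9.32) for the rest. No TRBS with a near-perfect DR4 had an input background over 5 fragments. A count of 0 of 369 allows a share of up to 0.813% by the limit of 3 counts used here for zeros and of up to 1.03% by the Wilson interval, and both cover the 0.783% over all TRBS.

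**Figure D1:**
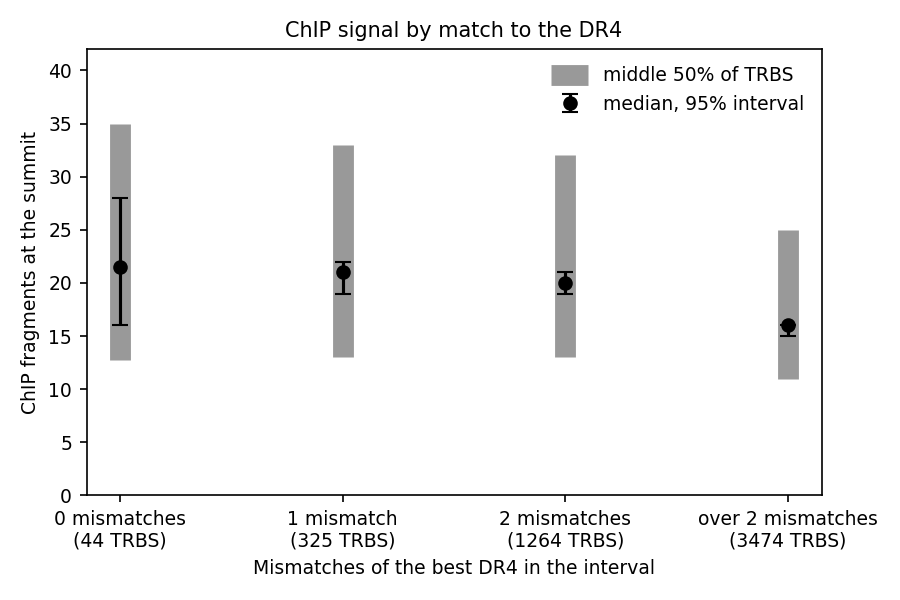
ChIP fragments at the summit of TRBS by the number of half-site mismatches of the best DR4 in the interval. Points are medians with 95% intervals, and grey bars span the middle 50% of TRBS. The medians of 21.5, 21 and 20 fragments for 0, 1 and 2 mismatches have overlapping intervals, and the median of TRBS without such an element is 16.

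Fragment numbers varied widely within each class. Perfect elements lay at summits with 7 to 87 fragments, and elements with 1 mismatch at summits with 6 to 153 fragments. Of the 44 perfect TRBS, 17 were in the strongest quartile of all scores and 9 in the weakest (20.5%, 11.2 to 34.5%). The element at Pwwp2b, which encodes a chromatin protein with a PWWP domain, had 68 fragments (95% Poisson interval 52.8 to 86.2) and a fold of 48.3. The intronic element of Tmod3, a protein that caps actin filaments, had 37 fragments and a fold of 19.9. The weakest perfect TRBS by score were those near Prr15, Rgma, Acrv1, Ubash3b and Cradd, each with 7 or 8 fragments and a score of 44. Perfect matches thus lay in both the strongest and the weakest quartile, but none reached the 153 fragments found with 1 mismatch.

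The position of the element in the interval was not used to choose the TRBS. Its centre lay at a median of 21 bp (19 to 24 bp) from the summit, in 282 of 369 TRBS (76.4%, 71.8 to 80.5%) within 50 bp, and in 109 (29.5%) within 10 bp. The median distance was 14 bp (11 to 29 bp) for perfect elements, 22 bp (19 to 24 bp) for 1 mismatch and 24 bp (22 to 26 bp) for 2 mismatches, and the intervals overlap. In 48 TRBS (13.0%) the element lay over 100 bp from the summit. TRBS with the element within 50 bp of the summit had a median of 22 fragments (21 to 24, n = 282), and the 87 others had 16 (13 to 21). Of these 87, the 48 TRBS with the element over 100 bp away had 20 (14 to 28), an interval that overlaps both.

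**Figure D2:**
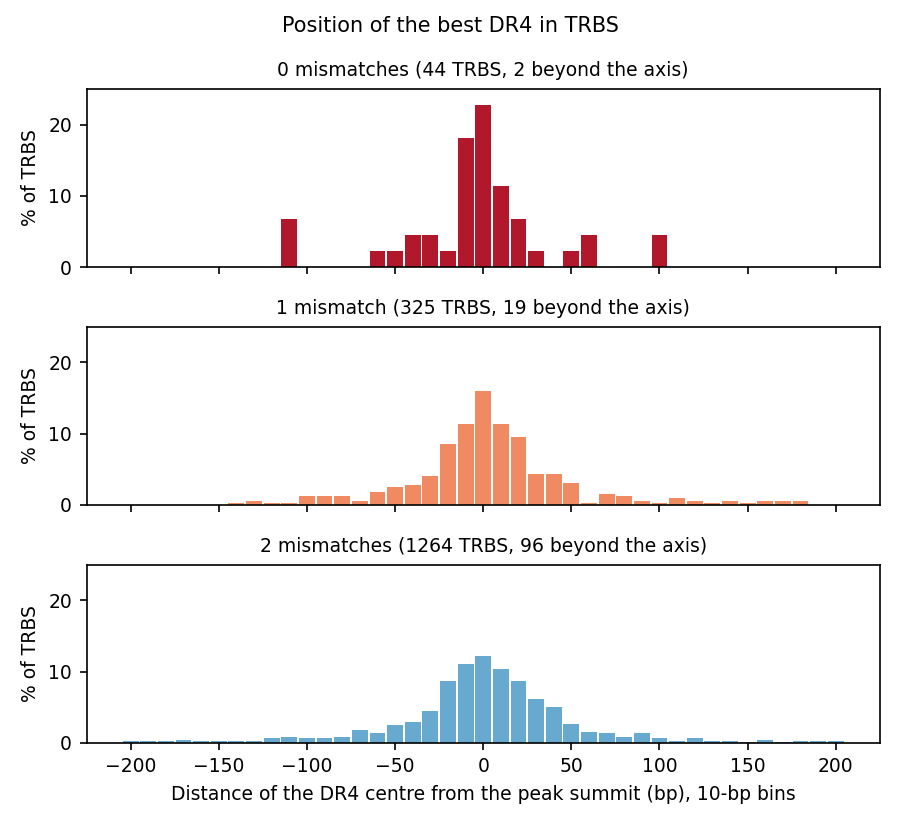
Distance of the centre of the best DR4 from the peak summit, in bp along the chromosome, as the percentage of TRBS in 10-bp bins for elements with 0, 1 and 2 mismatches. In each class the distribution peaks at the summit. The median distances are 14, 22 and 24 bp, and 2, 19 and 96 TRBS lie beyond the axis.

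The strongest TRBS with 1 mismatch and a TSS within 30 kb were at Elmo2, Ceacam16, Prss52, Dlg1, Eno1, Sult5a1, Tmem189, Faap100, Tet3 and Thrsp. Elmo2 encodes a regulator of cell engulfment and migration, and its TRBS had 117 fragments (96.8 to 140) and a fold of 72.8, although the element lay 139 bp from the summit. The TRBS 3172 bp upstream of Ceacam16, a gene of a cell adhesion family, had 137 fragments (115 to 162) and a fold of 54.7. That near Dlg1, a scaffold protein of cell junctions, had 102 fragments. The TRBS 5743 bp upstream of Eno1, which encodes the glycolytic enzyme enolase, had 71 fragments. Tet3, an enzyme that oxidises methylated cytosine, had a TRBS with 62 fragments at 14343 bp upstream of its TSS. The TRBS in an intron of Pde6b lay 3125 bp downstream of the TSS of Atp5k, a subunit of the mitochondrial ATP synthase, and had 58 fragments (44.0 to 75.0).

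Most TRBS with a near-perfect DR4 had their summit outside promoters, as did most other TRBS. The summit was within 30 kb of a protein-coding TSS in 202 of 369 (54.7%, 49.6 to 59.7%), and this share was 57.0% over all TRBS. It was within 1 kb in 31 (8.40%, 5.98 to 11.7%), against 12.0% (11.1 to 12.9%) over all TRBS. A promoter, here the interval from 1000 bp before to 100 bp after a TSS, held the summit of 15 (4.07%, 2.48 to 6.60%), against 7.49% (6.78 to 8.28%) of the other TRBS. TRBS with 2 mismatches, which are among those others, were close to the near-perfect ones, with 5.30% (4.20 to 6.68%) in promoters and 8.54% (7.13 to 10.2%) within 1 kb. With 1 TSS per gene, none of the 44 perfect elements was in a promoter, and 2 of their summits were in 5′ UTRs. Promoters of other transcripts were not counted. A count of 0 of 44 allows a share of up to 6.82% by the limit of 3 counts. By the Wilson interval it allows up to 8.03%, which covers the share of the other TRBS. Introns held 191 summits (51.8%, 46.7 to 56.8%) and intergenic sequence 149 (40.4%, 35.5 to 45.5%), against 48.7% and 38.0% of the other TRBS. The remaining 14 were in exons, with 10 in 5′ UTRs, 3 in coding exons and 1 in a 3′ UTR.

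**Figure D3:**
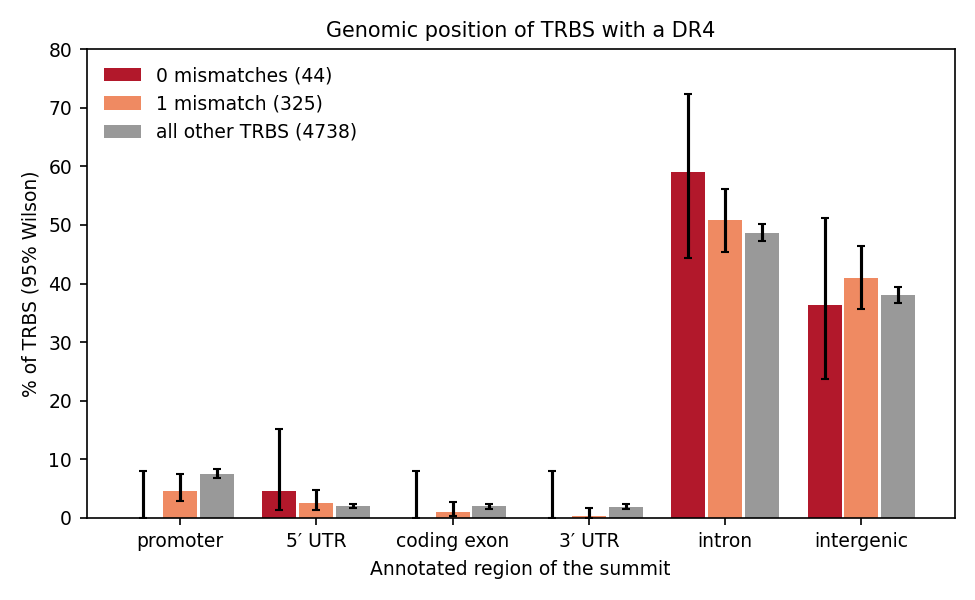
Percentage of TRBS whose summit lies in each annotated region, for TRBS with a perfect DR4 (44), with 1 mismatch (325) and for all other TRBS (4738). Bars are shares and lines are 95% Wilson intervals. With 1 TSS per gene, no perfect element lies in a promoter. Of elements with 1 mismatch 4.62% do, and of the other TRBS 7.49%. Introns and intergenic sequence hold most TRBS of every class.

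Of the 202 elements with a gene within 30 kb, 102 (50.5%, 43.7 to 57.3%) lay on the strand of the nearest gene. The summit was downstream of the nearest TSS in 116 of these 202 (57.4%, 50.5 to 64.0%), against 59.7% over all TRBS. Another TRBS summit lay within 10 kb of 90 of the 369 (24.4%, 20.3 to 29.0%), against 30.1% (28.8 to 31.4%) of the other TRBS. This share was 27.2% (24.8 to 29.7%) for TRBS with 2 mismatches, which overlaps that of the 369, and 31.1% (29.6 to 32.7%) for TRBS without a DR4 of up to 2 mismatches. An exact half-site outside the element was present in 46.9% of TRBS with a near-perfect DR4 and in 46.1% of the others, and the intervals overlap.

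A gene was linked to a TRBS when its TSS was within 30 kb of the summit. A near-perfect DR4 TRBS was linked to 361 of 21911 protein-coding gene symbols (1.65%), which stand for the genes in these counts, and any TRBS to 3653 (16.7%). A perfect element was linked to 39 genes, and 167 of the 369 TRBS had no gene in this range. Of the 361 genes, 171 (47.4%) had more than 1 TRBS, of whatever kind, and 27.4% of all genes with a TRBS did. A gene with more TRBS has more chances to hold a DR4. Among the 160 genes with several TRBS and exactly 1 near-perfect DR4, that TRBS had the most fragments in 90 (56.3%, 48.5 to 63.7%), whereas 1 TRBS made up 39.9% of the TRBS of such a gene by number, on average. Neighbouring genes can share the same TRBS, which is then counted once for each gene. These genes are thus not independent, and the interval is too narrow.

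There were 11 genes with 2 near-perfect DR4 TRBS. Cebpb, a transcription factor of adipocyte differentiation, had one at 1001 bp upstream of its TSS with 25 fragments and another at 7306 bp downstream with 80, among 6 TRBS, and Tmem189 shares both. Suclg1, a subunit of the succinyl-CoA synthetase of the citric acid cycle, had a perfect element at 15618 bp upstream with 20 fragments and an element with 1 mismatch at 1638 bp downstream with 34. Dnah6 shares this pair. Kif16b, a kinesin of endosomes, had TRBS with 87 and 13 fragments, and Cfap54 had 21 and 29. The other 5 genes, among them Atp5d and Cirbp, lie together on chromosome 10 and share TRBS with 14 and 29 fragments.

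The gene lists were counted beside all protein-coding genes, where 1.65% had a near-perfect DR4 TRBS and 16.7% any TRBS. All 8 genes that the study names had a TRBS, and 2 had a near-perfect DR4. The study names these genes on several grounds, and its atlas draws on data that include these samples. The list, compiled here, is thus not independent evidence. Of 20 classic targets of thyroid hormone, 10 had a TRBS and 2 a near-perfect DR4. For 30 genes of thermogenesis and brown fat identity the counts were 21 and 1, for 48 genes of lipid metabolism 30 and 3, and for 23 clock genes 13 and 1. Most list genes with a TRBS thus had no near-perfect DR4 there, and of the genes with a TRBS over all protein-coding genes 9.88% had one.

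Among the genes named by the study, Desi1, an isopeptidase of SUMO proteins, had the only perfect element of any list. Its TRBS had 25 fragments (16.2 to 36.9), an input background of 3.35 and a fold of 5.98. The TRBS 15060 bp upstream of Hcn2, a cation channel, had 31 fragments, and its nearest gene was Bsg. Of the classic targets, Thrsp, the hormone-responsive lipogenic protein also called Spot 14, had a TRBS with 58 fragments (44.0 to 75.0) and a fold of 40.1, 6129 bp upstream of its TSS. G6pc, the catalytic subunit of glucose-6-phosphatase, had a TRBS with 20 fragments (12.2 to 30.9) at 4739 bp upstream, with the element 3 bp from the summit.

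Of the lipid genes, Pnpla2, the adipose triglyceride lipase, had a TRBS with 46 fragments (33.7 to 61.4) and a fold of 29.3 in an intron, 1096 bp downstream of its TSS and among 5 TRBS. Hadha and Hadhb, the subunits of the mitochondrial trifunctional protein of fatty acid oxidation, shared a TRBS with 13 fragments in an intron of Hadha. Ppara, a nuclear receptor that controls fatty acid oxidation and that stands here in the list of thermogenesis, had a TRBS with 46 fragments and a fold of 28.8 at 28880 bp upstream of its TSS. Cry2, a repressor of the circadian clock, had 12 fragments at 12006 bp upstream.

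Several further genes of mitochondria, peroxisomes and regulation had a near-perfect DR4 TRBS within 30 kb. They were picked after the values had been seen and so carry no count. Idh3a, a subunit of an isocitrate dehydrogenase, had 54 fragments at 7765 bp upstream, and Letm1, a protein of the inner membrane, had 46 fragments in an intron at 531 bp downstream. Ndufs4, a subunit of complex I, had a perfect element with 10 fragments, 115 bp from the summit. Coq9, which takes part in the synthesis of coenzyme Q, had 22 fragments at 1312 bp upstream. Klf13, a transcription factor of the zinc finger class, had 52 fragments, and Sik1, a kinase of the cAMP pathway, had 43. Abcd2, a transporter of fatty acids in peroxisomes, was among the genes with an element at the promoter, and its TRBS lay 164 bp upstream of the TSS with 15 fragments.

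In all, the 369 TRBS held 425 elements, since 21 of them had 2 or more and 12 had 3 or more. The highest scores of the 369 belonged to TRBS in introns of Map3k13 and Iqch, neither of them within 30 kb of a protein-coding TSS. Map3k13, a kinase of the JNK pathway, had 10 elements that all carried T4A and began 24 bp apart, with 153 fragments (130 to 179) and a fold of 97.0. Iqch had 9 elements that began 37 to 251 bp apart, with 142 fragments and a fold of 88.9. Elements 5 bp apart, as in Kif16b and Proca1, had 87 and 74 fragments, but 12 fragments at Usp25 with 5 elements. TRBS with 3 or more elements had a median of 29 fragments (15 to 87, n = 12), those with 1 element 21 (19 to 22, n = 348), and the intervals overlap.

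All near-perfect sites of the assembled chromosomes were next used as the denominator. A site was called occupied when it lay in a TRBS. Of 1119 perfect sites, 62 (5.54%, 4.35 to 7.04%) were occupied, of 21137 sites with 1 mismatch 363 (1.72%, 1.55 to 1.90%), and of 267822 sites with 2 mismatches 1638 (0.612%, 0.583 to 0.642%). Most DR4 sites thus lay outside TRBS, and the occupied share fell with each mismatch. With sites that start within 50 bp of each other counted once, 44 of 1036 perfect loci (4.25%, 3.18 to 5.65%) and 330 of 20919 loci with 1 mismatch (1.58%, 1.42 to 1.76%) were occupied. By locus, the shares outside repeat-masked sequence were 4.26% (3.08 to 5.86%) for perfect loci and 2.09% (1.87 to 2.33%) for 1 mismatch, and in repeats 4.21% (2.23 to 7.80%) and 0.421% (0.290 to 0.612%). With every site counted, 9.29% of perfect sites in repeats were occupied, since the overlapping arrays count each TRBS several times. By locus, 5.56% (3.66 to 8.34%) of perfect loci within 30 kb of a TSS were occupied and 3.50% (2.34 to 5.19%) of those farther away, with overlapping intervals. For loci with 1 mismatch the shares were 2.31% (2.00 to 2.66%) and 1.14% (0.975 to 1.34%). The accessibility of the chromatin was not measured, so unbound sites in closed and in open chromatin cannot be told apart.

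The bases of the spacer were compared over these loci, each counted once, a choice made after the arrays had been seen. At the third spacer position, T had the highest occupied share with 153 of 4393 loci (3.48%, 2.98 to 4.07%), followed by C with 2.54% (2.11 to 3.06%), G with 1.28% (1.00 to 1.63%) and A with 0.598% (0.454 to 0.788%). With every site counted, the share with T was 4.11% (3.57 to 4.73%). The fourth position ran from C with 2.67% (2.25 to 3.17%) through G with 1.96% and A with 1.18% to T with 0.861% (0.610 to 1.21%). The first and second positions varied less, between 1.24% and 2.32%. Outside repeats the third position ran from T with 3.59% (3.05 to 4.22%) and C with 3.03% (2.49 to 3.67%), whose intervals overlap, to G with 1.56% and A with 0.914% (0.672 to 1.24%). At the fourth position, C with 3.02% (2.52 to 3.62%) and G with 3.01% (2.54 to 3.57%) then had overlapping intervals, and A had 1.48% and T 1.08%. At the second position A moved from 1.24% to 1.87%, and the bases there ran up to 2.68% for C. The higher share with T at the third position was present in both classes of match. It had been known from earlier results of these data, so the splits given here describe it and are not independent support. Among perfect loci it was 24 of 240 with T (6.81 to 14.4%) against 20 of 796 without (2.51%, 1.63 to 3.85%), and among loci with 1 mismatch 3.11% (2.62 to 3.68%) against 1.20% (1.04 to 1.38%). The perfect loci with T include 41 with the spacer GGTC, described below, and 9 of these 41 were occupied. Within 30 kb of a TSS the shares with and without T were 5.20% and 1.81%, and farther away 2.54% and 0.923%. TRBS with T at this position had a median of 22 fragments (20 to 25, n = 150) and those without had 20 (18 to 22, n = 219), with overlapping intervals.

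**Figure D4:**
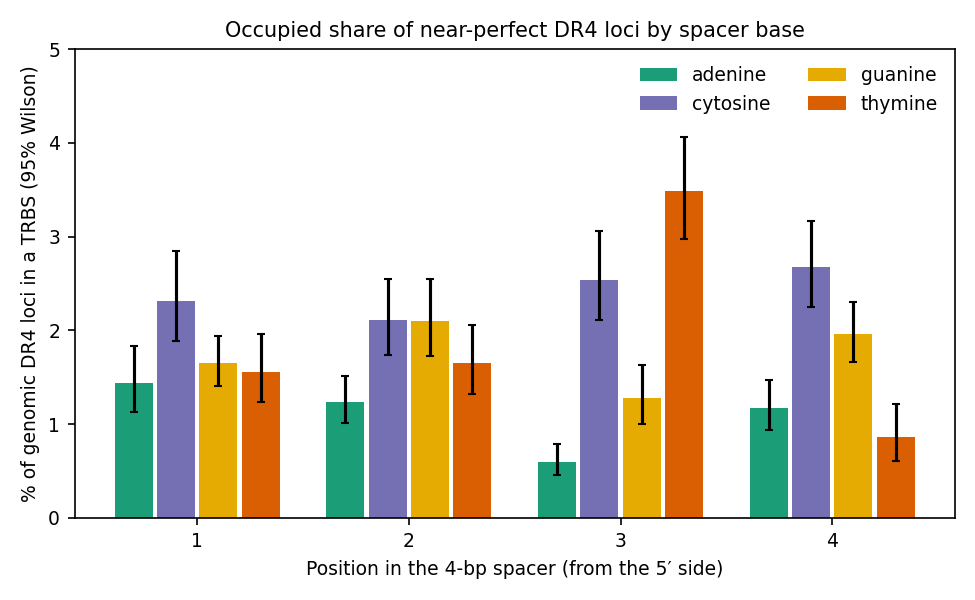
Percentage of near-perfect DR4 loci of the genome that lie in a TRBS, by the base at each of the 4 spacer positions, with 95% Wilson intervals. Loci within 50 bp of each other were counted once. At position 3 the share runs from 0.598% for adenine to 3.48% for thymine, and at position 4 from 0.861% for thymine to 2.67% for cytosine.

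The spacer GGTC is that of half-sites repeated exactly every 5 bp, and it was in the best element of 16 TRBS, 9 of them perfect. Overlapping elements can have other spacers, such as GGGC at the ends of the Kif16b array. Of 41 perfect loci with this spacer, 9 (22.0%, 12.0 to 36.7%) were occupied, against 35 of 995 (3.52%, 2.54 to 4.85%) other perfect loci. Without the 121 loci with this spacer, perfect or with 1 mismatch, T at the third position was occupied in 139 of 4272 (3.25%, 2.76 to 3.83%). Spacers with a CpG were occupied in 27 of 591 loci (4.57%, 3.16 to 6.57%), and those without in 1.62% (1.46 to 1.80%). This order held on either side of the 30 kb limit, with 5.62% (3.43 to 9.06%) against 2.35% nearer a TSS and 3.70% (2.13 to 6.36%) against 1.20% farther away. The best elements of the 369 TRBS showed 150 of the 256 possible spacers. The most frequent spacer of the genome, GAAG, had 2130 sites, of which 92.6% were in repeats, and 9 of them (0.423%) were occupied.

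The position of the mismatch was compared over all sites with 1 mismatch, so that arrays count several times. The highest share was at position 1, the outer base of the 5′ half-site, with 42 of 993 sites occupied (4.23%, 3.14 to 5.67%), mostly A1G with 31 of 515 (6.02%, 4.27 to 8.42%). Of these 31 sites, 9 lay in the TRBS of Iqch, and by locus the shares were 3.70% (2.68 to 5.08%) at position 1 and 5.37% (3.71 to 7.70%) for A1G. The Iqch TRBS still made up 5 of the 27 occupied A1G loci, since some of its elements began over 50 bp apart. The lowest was at position 12, the second base of the 3′ half-site, with 2 of 1168 (0.171%, 0.0470 to 0.622%). Both were G12A, and G12T was occupied at none of 489 sites, which allows a share of up to 0.613% by the limit of 3 counts and 0.779% by the Wilson interval. Position 13 followed with 0.802% (0.494 to 1.30%). The same bases of the 5′ half-site, positions 2 and 3, were occupied at 1.30% (0.815 to 2.08%) and 1.70% (1.19 to 2.43%). Position 16, the last base, had 2.75% (1.84 to 4.10%) and position 4 had 2.52% (1.96 to 3.23%). Of the 60 occupied sites at position 4, 10 lay in the TRBS of Map3k13, and the share by locus was 2.01% (1.51 to 2.66%).

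**Figure D5:**
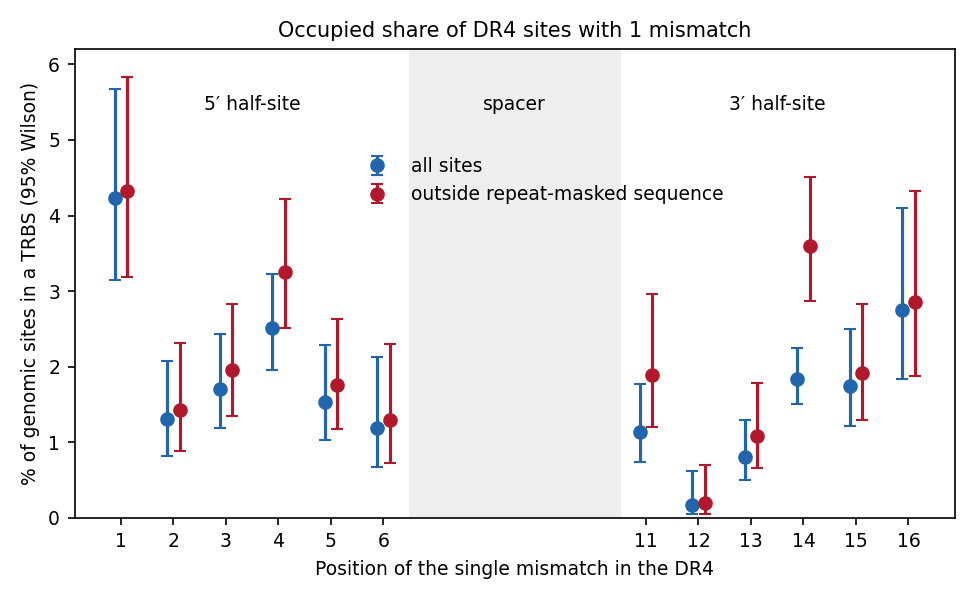
Percentage of genomic DR4 sites with 1 mismatch that lie in a TRBS, by the position of the mismatch, for all sites (blue) and for sites outside repeat-masked sequence (red), with 95% Wilson intervals. Position 1 has 4.23% and position 12 has 0.171% over all sites, and position 14 moves from 1.84% to 3.60% outside repeats.

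Repeats changed the share at position 14. It was 1.84% (1.50 to 2.25%) over all sites and 3.60% (2.88 to 4.51%) outside repeats, and 74.4% of the 2529 sites with T14G were in repeats. T14A was occupied at 2.93% (2.15 to 3.98%), T14C at 2.52% (1.76 to 3.60%) and T14G at 0.949% (0.639 to 1.41%). Outside repeats these shares were 4.25% (3.03 to 5.94%), 3.99% (2.72 to 5.83%) and 2.47% (1.53 to 3.98%), with overlapping intervals. Taken by half-site, a mismatch on the 5′ side was occupied at 182 of 8808 sites (2.07%, 1.79 to 2.38%) and a mismatch on the 3′ side at 181 of 12329 (1.47%, 1.27 to 1.70%). Outside repeats the shares were 2.36% (2.04 to 2.74%) and 2.07% (1.77 to 2.42%), with overlapping intervals. The median number of fragments was 21 for a mismatch on the 5′ side (19 to 23, n = 159) and 21 on the 3′ side (17 to 24, n = 166), with overlapping intervals.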

How the data were processed

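The data were 1 list of peaks from 1 ChIP library and 1 input library. Per the submitters' processing notes, the authors used Bowtie2 2.3.2.2, MACS2 2.1.1.20160309.6 and mm10 (GRCm38). Each deposited peak gives a score, a fold over input (a ratio), and a −log10 p-value and −log10 q-value from the authors' peak caller. Read totals and peak-calling settings are not given in the sources used here, and the deposited list keeps peaks with a score under 60. The ChIP fragments and input background at a summit were solved from the deposited fold and p-value, to within 0.0005 of the −log10 p. The fold was taken as fragments plus 1 over input background plus 1, so it is lower than their plain ratio. Genes were GENCODE models of GRCm38, with 1 TSS per gene and 21938 protein-coding genes under 21911 symbols. The genome was scanned on both strands with Python 3.11.15, numpy 2.4.6, pandas 2.3.3 and scipy 1.17.1, and the scan was tested on simulated data. Repeats were the lower-case bases of the RefSeq genome. Shares have Wilson intervals (for a count of 0, also the limit of 3 counts of the total), medians order-statistic and fragment numbers exact Poisson intervals. On ties the element nearest the summit was used. The members, the lists and the comparison of T at the third spacer base were chosen with earlier results of these data known. The TRBS named were the 20 perfect and 15 1-mismatch TRBS of highest score with a fold of at least 5 and a TSS within 30 kb, list genes within 30 kb, TRBS with 3 or more elements and the 5 perfect TRBS of lowest score; the text prints some of them. The result of 1 gene list and 1 of the TRBS so chosen are not reported here. Alternatives covered the search window, mismatches allowed, distance, annotation, score and repeats.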

Additional observations from a re-analysis of the deposited data

How the results depend on the processing

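Of 48 recomputed values of 11 results, 28 stayed within the 95% interval of the value under the planned setting and 20 moved out of it. The share of TRBS with a near-perfect DR4 was 6.21% within 100 bp of the summit, 16.0% with A or G at the first base of each half-site, 0.862% without mismatches and 32.0% with up to 2. Within 100 bp of the summit the median distance was 17 bp and 89.0% of elements lay within 50 bp. The share near a TSS was 75.1% with genes of all types, 30.4% with a limit of 10 kb, 82.1% with 100 kb and 67.5% with a TSS for each transcript. For occupied shares the planned setting counted every site, and 1 site per locus, with or without repeats, was chosen after seeing the data. Perfect sites went from 5.54% to 4.25% with 1 site per locus and to 4.26% with 1 site per locus outside repeats. Sites with 1 mismatch went from 1.72% to 1.45% within 100 bp of a summit, 2.22% outside repeats and 2.09% with 1 site per locus outside repeats. T at the third spacer base went from 4.11% to 3.53% within 100 bp of a summit and to 3.48% with 1 site per locus. A mismatch in the 5′ half-site gave 1.69% within 100 bp of a summit, and one in the 3′ half-site gave 2.07% outside repeats and 1.99% with 1 site per locus outside repeats. The causes of these moves were not tested. No paired analysis was possible because the groups have 1 library each. With 44 perfect TRBS, and few occupied sites in some mismatch classes, the intervals are wide.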
